A study of Mus musculus with 8 samples.

Results

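RNA of 9 genes that carry out or trigger mitochondrial cell death was compared between leukaemia stem cells that lack Nynrin and leukaemia stem cells that have it. The genes were chosen by symbol: the pore formers Bax and Bak1, and the BH3-only genes Bcl2l11, Bid, Bbc3, Pmaip1, Bad, Bmf and Bik. All 9 were found among the 48500 genes of the deposited table, each on 1 row. Nynrin-KO cells (genotype Nynrin-/-) and WT cells (Nynrin+/+) came from bone marrow of mice whose acute myeloid leukaemia is driven by HOXA9 and MEIS1, so both genotypes carry these drivers. For each library about 10000 cells were sorted as positive for GFP and c-Kit, the stem cell factor receptor, and negative for Gr-1, a neutrophil surface antigen. There were 4 Nynrin-KO libraries (KO1 to KO4) and 4 WT libraries (WT1 to WT4). The labels give neither the age of the mice nor the deleted part of Nynrin. They do not say whether each library is a mouse of its own either, and the p-values therefore describe spread between libraries, which may be technical. The title of the series names resistance to venetoclax, a drug that inhibits BCL2.

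BAX and BAK form pores in the outer mitochondrial membrane, which release cytochrome c and commit a cell to apoptosis. BH3-only proteins set these pore formers off: BIM (encoded by Bcl2l11), BID and PUMA (Bbc3) bind BAX and BAK and also the anti-apoptotic BCL2 proteins, whereas NOXA (Pmaip1), BAD, BMF and BIK act mainly by occupying the anti-apoptotic proteins. In blood cells BIM is a main trigger of death after loss of cytokine signals, and venetoclax acts as a BH3 mimic that displaces such proteins from BCL2. RNA levels do not show the cleavage, phosphorylation or binding that switch these proteins on.

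Expression is given as FPKM, a fragment count scaled to transcript length and library depth. Library depth, recovered from the FPKM values, ranged from 1830000 reads in KO3 to 28700000 in KO4 among Nynrin-KO libraries, and from 1960000 reads in WT3 to 33100000 in WT1 among WT libraries. Nynrin itself stood at 0.0982 to 0.437 FPKM in Nynrin-KO and 0.008 to 0.286 FPKM in WT, so its level does not check the labels. Kit, Cd34, Hoxa9 and Meis1, genes of the sorted cells and of the drivers, were detected in all 8 libraries. Kit stood at 2.92 to 4.91 FPKM in Nynrin-KO and 2.63 to 6.40 FPKM in WT, and Cd34, a progenitor surface marker, fell, at 5.54 to 7.30 FPKM in Nynrin-KO and 55.7 to 151 FPKM in WT (limma adjusted p = 0.000929). Hoxa9 rose, at 1.70 to 6.38 FPKM in Nynrin-KO and 0.569 to 1.90 FPKM in WT (limma adjusted p = 0.0397). Meis1 rose as well, at 2.03 to 5.13 FPKM in Nynrin-KO and 0.664 to 0.898 FPKM in WT (limma adjusted p = 0.00466). Whether these reads came from driver copies or from the cells' own genes was not determined. The leukocyte gene Ptprc also rose, at 114 to 226 FPKM in Nynrin-KO and 38.3 to 71.5 FPKM in WT (limma adjusted p = 0.00393). Ly6g, which encodes part of Gr-1, was nevertheless at 93.5 to 264 FPKM in Nynrin-KO and 0.707 to 49.3 FPKM in WT. The 13 listed mature neutrophil markers took 8.67% to 19.97% of reads in Nynrin-KO and 0.237% to 7.64% in WT, none of them at 0 in any library. Xist, which coats an inactivated X, was at 12.7 FPKM in KO1, at most 0.366 FPKM in KO2 to KO4, and at 15.2 to 26.5 FPKM in WT. The Y-linked gene Ddx3y was at 2.18 FPKM in KO1, 18.2 to 20.7 FPKM in KO2 to KO4, and at most 0.111 FPKM in WT. The effects of sex and of genotype therefore cannot be told apart.

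In Nynrin-KO cells Bax and Bid fell and Bcl2l11, the gene of BIM, rose. Mean Bax was 2.58-fold lower and mean Bid 2.04-fold lower than in WT, and mean Bcl2l11 was 1.92-fold higher. Bbc3, Pmaip1 and Bad were tested and did not pass the threshold, while Bak1, Bmf and Bik were too low to enter the test. Calls are from limma on log2(FPKM + 1) over the 12524 genes that reached 1 FPKM in 4 or more libraries, at an adjusted p (Benjamini-Hochberg over all genes tested) under 0.05. Of the 9 members 6 passed this filter, none of them through 1 group alone, and 3 were called. Of all genes tested, 27.9% were called, 14.0% as higher and 13.8% as lower in Nynrin-KO, and whether the members stand apart from that background was not tested. The median log2 change of the 6 tested members was -0.44, beside -0.03 over all genes tested. That median lies between the changes of Bad and Bbc3, which were not called and were -0.12 and -0.027 without KO3. Groups did not overlap for 3 of the 6 tested members, where 31.7% of the genes tested had groups that did not overlap. They overlapped for each member below the filter. In bulk RNA a lower level in each cell cannot be told apart from fewer cells that express the gene.

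**Figure D1:**
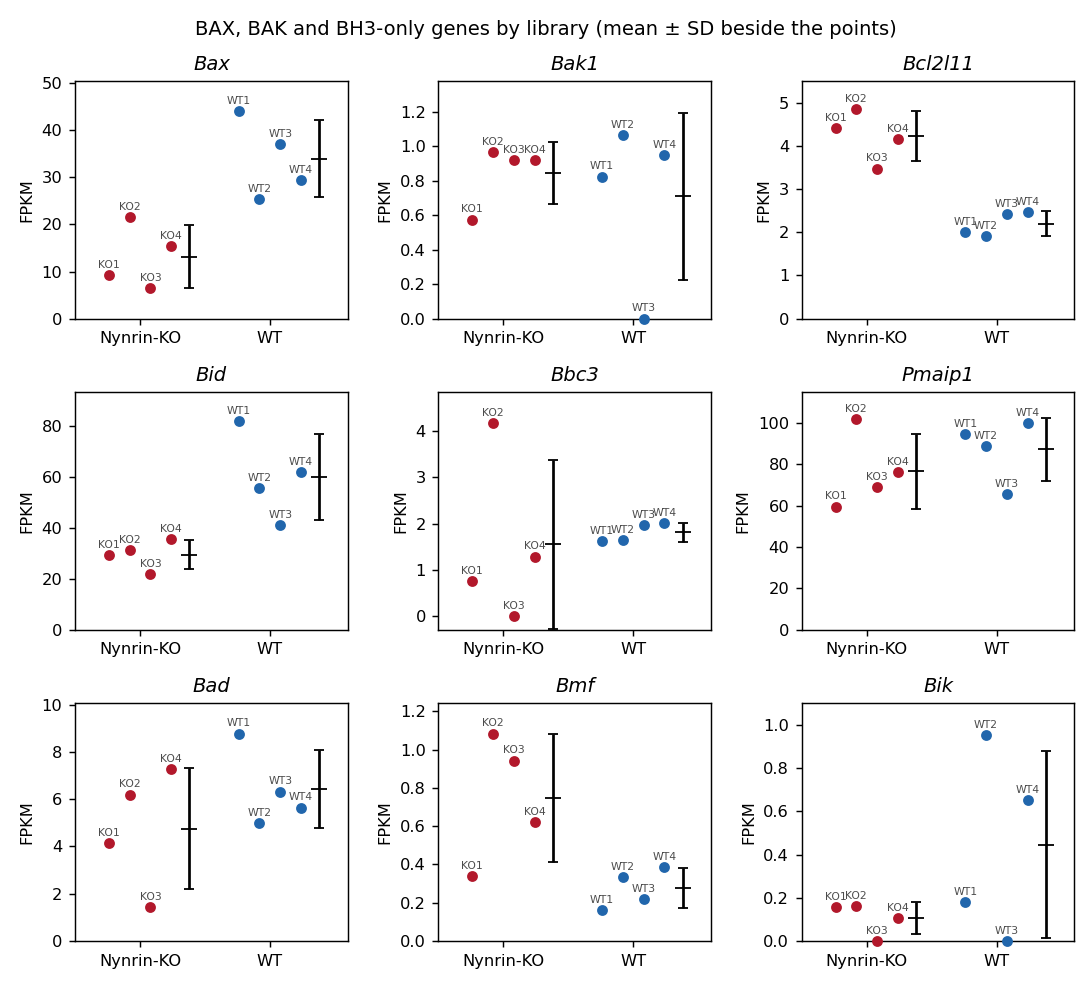
FPKM (vertical axis) of each of the 9 genes in the 4 Nynrin-KO libraries (red, left) and the 4 WT libraries (blue, right), with the mean and SD of each group beside the points. For Bax and Bid every Nynrin-KO point lies below every WT point, for Bcl2l11 every Nynrin-KO point lies above, and for the other 6 genes the groups overlap.

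Of the pore formers, Bax (ENSMUSG00000003873, a protein-coding gene on the minus strand of mm10 chromosome 7, 45461697 to 45466898) fell in Nynrin-KO. Its level was 9.21, 21.6, 6.47 and 15.4 FPKM in KO1 to KO4, against 44.0, 25.4, 37.1 and 29.4 FPKM in WT1 to WT4. The highest Nynrin-KO library, KO2, thus stood below the lowest WT library, WT2. The means were 13.2 ± 6.74 FPKM in Nynrin-KO and 34.0 ± 8.23 FPKM in WT (SD, n = 4 each). The log2 change was -1.40 (SE 0.35, limma adjusted p = 0.0171). These values rest on 96, 547, 13 and 487 reads in KO1 to KO4 and on 1600, 198, 80 and 557 reads in WT1 to WT4. The 13 reads of KO3 allow 3.44 to 11.1 FPKM (exact Poisson 95% interval), which still lies below the WT range. The intervals of the nearest pair, 19.8 to 23.4 FPKM in KO2 and 22.01 to 29.2 FPKM in WT2, overlap. In the exon annotation 12.2% of the bases of Bax also belong to the gene model Gm45808 on the same strand, which is not analysed here.

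Bak1 (ENSMUSG00000057789, minus strand of chromosome 17, 27019810 to 27029009), the second pore former, was far below Bax in every library. It stood at 0.574, 0.963, 0.917 and 0.920 FPKM in KO1 to KO4, against 0.823, 1.07, 0 and 0.948 FPKM in WT1 to WT4. The WT library listed at 0 is WT3, where 3 reads would give 0.640 FPKM, so its value is below what that depth could show. An exact two-sided permutation test over the 70 arrangements of the libraries gave p = 0.771 for a mean log2(FPKM + 1) that was 0.16 higher in Nynrin-KO. On the opposite strand Ggnbp1 covers 18.2% of the exon bases of Bak1, and no source used here says whether counting was by strand.

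Among the direct activators of BAX and BAK, Bcl2l11 (ENSMUSG00000027381, plus strand of chromosome 2, 128126038 to 128162547) rose in Nynrin-KO. BIM, its product, binds all main anti-apoptotic BCL2 proteins. The gene stood at 4.42, 4.86, 3.48 and 4.15 FPKM in KO1 to KO4, against 1.9985, 1.91, 2.43 and 2.48 FPKM in WT1 to WT4. All 4 Nynrin-KO libraries lay above all 4 WT libraries, and each group was tight. Means were 4.23 ± 0.577 FPKM in Nynrin-KO and 2.20 ± 0.291 FPKM in WT (SD, n = 4 each), with a log2 change of 0.70 (SE 0.16, limma adjusted p = 0.0119). In the shallowest pair the values came from 32 reads in KO3 and 24 reads in WT3, and their counting intervals, 2.38 to 4.91 FPKM and 1.56 to 3.61 FPKM, overlap. The gap between the groups is therefore clearer in the deeper libraries, such as 600 reads in KO4 and 333 reads in WT1.

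Bid (ENSMUSG00000004446, minus strand of chromosome 6, 120891930 to 120916853) fell. Its product is cut by caspases of the death receptor pathway and then moves to mitochondria, which links that pathway to BAX and BAK. Levels were 29.3, 31.2, 21.8 and 35.7 FPKM in KO1 to KO4, against 81.7, 55.5, 41.1 and 61.9 FPKM in WT1 to WT4. The groups did not overlap, although the counting intervals of KO4, 34.3 to 37.1 FPKM, and WT3, 35.6 to 47.3 FPKM, did. On average Bid stood at 29.5 ± 5.79 FPKM in Nynrin-KO and 60.1 ± 16.9 FPKM in WT (SD, n = 4 each). The log2 change was -0.98 (SE 0.25, limma adjusted p = 0.0183). With 96 to 2471 reads in each Nynrin-KO library and 195 to 6532 in each WT library, it was among the better counted members. Its exons overlap Bcl2l13 on the opposite strand over 17.7% of their bases, and Bcl2l13 averaged 3.44 FPKM in Nynrin-KO and 4.16 FPKM in WT.

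Bbc3 (ENSMUSG00000002083, plus strand of chromosome 7, 16308393 to 16318205) encodes PUMA, a p53-induced activator. Its Nynrin-KO libraries spread widely, at 0.756, 4.18, 0 and 1.29 FPKM in KO1 to KO4, against 1.62, 1.64, 1.97 and 2.01 FPKM in WT1 to WT4. KO2 lay above all WT libraries and the other 3 Nynrin-KO libraries below them. KO3 had no read, where 3 reads would be 0.905 FPKM. The log2 change was -0.39 (95% interval -1.38 to 0.59, limma adjusted p = 0.540), which leaves room for a change in either direction. It was -0.027 without KO3 and -0.82 without KO2 (limma adjusted p = 0.105).

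The promoter sequences of the 3 called members are shown because these genes moved in opposite directions. Each is the RefSeq window of 300 bases on GRCm38.p6, from 250 bases before the start of transcription to 50 after it, read 5′ to 3′ on the strand of the gene. The windows are chr7:45466849-45467148 for Bax, chr6:120916775-120917074 for Bid and chr2:128125788-128126087 for Bcl2l11, the last being 1 of 2 windows of that gene. Capitals mark 4 motifs searched on both strands: the E-box CACGTG that MYC and related proteins bind, the FOXO core GTAAACA, the GC box GGGCGG, and the p53 decamer. The windows read as follows.
Bax: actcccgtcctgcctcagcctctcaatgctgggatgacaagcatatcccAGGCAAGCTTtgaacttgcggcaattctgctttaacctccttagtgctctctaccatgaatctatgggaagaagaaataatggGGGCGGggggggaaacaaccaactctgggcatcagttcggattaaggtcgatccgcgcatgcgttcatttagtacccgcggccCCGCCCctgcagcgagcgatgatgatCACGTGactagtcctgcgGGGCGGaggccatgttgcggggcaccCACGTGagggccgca
Bid: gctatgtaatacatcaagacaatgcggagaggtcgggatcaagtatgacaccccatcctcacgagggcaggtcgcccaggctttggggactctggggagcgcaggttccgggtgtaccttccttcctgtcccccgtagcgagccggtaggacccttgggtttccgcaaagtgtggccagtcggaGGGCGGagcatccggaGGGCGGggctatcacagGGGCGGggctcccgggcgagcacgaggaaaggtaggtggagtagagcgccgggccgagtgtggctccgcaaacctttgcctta
Bcl2l11: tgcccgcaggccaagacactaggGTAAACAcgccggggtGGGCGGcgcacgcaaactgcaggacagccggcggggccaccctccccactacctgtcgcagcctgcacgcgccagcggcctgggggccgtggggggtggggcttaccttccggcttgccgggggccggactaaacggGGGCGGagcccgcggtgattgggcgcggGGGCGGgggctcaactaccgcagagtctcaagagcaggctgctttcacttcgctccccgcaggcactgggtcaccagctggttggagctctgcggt

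No match overlaps another. The Bax window holds 2 E-boxes, a motif found in 7.15% of all 32851 promoter windows, and 1 p53 decamer, found in 8.36%. Bcl2l11 has 1 FOXO core, found in 3.65% of windows, and no E-box or p53 decamer. Bid has none of these motifs. Each window holds 3 GC boxes, and 35.7% of all windows hold at least 1. These are matches of letters only, and binding of any factor was not measured here.

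Among the genes whose products mainly occupy anti-apoptotic proteins, Pmaip1 (ENSMUSG00000024521, plus strand of chromosome 18, 66458533 to 66465565) was by far the most abundant. Its product NOXA binds MCL1 and A1. The level was 59.5, 102, 69.0 and 76.2 FPKM in KO1 to KO4, against 94.5, 88.6, 65.6 and 99.8 FPKM in WT1 to WT4. KO2 was the highest and KO1 the lowest of all 8 libraries, so the groups overlapped fully. The log2 change was -0.19 (95% interval -0.70 to 0.32, limma adjusted p = 0.561). With 344 to 8526 reads in each library, counting error was small here, and the interval limits a fall to 0.70 on the log2 scale.

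Bad (ENSMUSG00000024959, plus strand of chromosome 19, 6941861 to 6951899) encodes a protein that survival kinases phosphorylate and hold away from BCL-XL. It was at 4.13, 6.20, 1.43 and 7.27 FPKM in KO1 to KO4, against 8.77, 4.98, 6.32 and 5.64 FPKM in WT1 to WT4. Only KO1 and KO3 were below every WT library, and KO3 rested on 4 reads. The log2 change of -0.48 did not pass (95% interval -1.31 to 0.34, limma adjusted p = 0.357), and without KO3 it was -0.12. On the opposite strand Gpr137 covers 20.5% of its exon bases.

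Bmf and Bik were low throughout. Bmf (ENSMUSG00000040093, minus strand of chromosome 2, 118528757 to 118549687), whose product is held at the cytoskeleton through a dynein light chain, was at 0.341, 1.08, 0.943 and 0.623 FPKM in KO1 to KO4. In WT1 to WT4 it was at 0.163, 0.335, 0.220 and 0.387 FPKM. Of the Nynrin-KO libraries 3 stood above every WT library, and KO1 lay inside the WT range. The mean log2(FPKM + 1) was 0.44 higher in Nynrin-KO (exact two-sided permutation p = 0.0571, where the smallest possible is 0.0286), from 222 reads in all in Nynrin-KO and 69 in WT. Bik (ENSMUSG00000016758, plus strand of chromosome 15, 83526862 to 83544634) had 11 reads in all 4 Nynrin-KO libraries and 32 in the WT libraries. Its level was at most 0.162 FPKM in Nynrin-KO and at most 0.953 FPKM in WT (exact two-sided permutation p = 0.229).

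The order of the levels was nearly the same in both genotypes. In Nynrin-KO it ran Pmaip1 (76.6 FPKM), Bid (29.5), Bax (13.2), Bad (4.76), Bcl2l11 (4.23), Bbc3 (1.56), Bak1 (0.844), Bmf (0.748) and Bik (0.106), as mean FPKM. In WT it ran Pmaip1 (87.1 FPKM), Bid (60.1), Bax (34.0), Bad (6.43), Bcl2l11 (2.20), Bbc3 (1.81), Bak1 (0.709), Bik (0.446) and Bmf (0.276). Within each library Pmaip1 was above Bid and Bid above Bax, in all 8. Bad was above Bcl2l11 in all 4 WT libraries, but in 2 of the 4 Nynrin-KO libraries, so these neighbours cannot be ordered in Nynrin-KO. Bak1 and Bmf also could not be ordered in Nynrin-KO, where each was the higher in 2 libraries. Pmaip1, Bid and Bax together held 89.9% to 93.5% of the summed FPKM of the 9 genes in Nynrin-KO and 92.9% to 94.2% in WT. Of that sum Pmaip1 made up 53.8% to 66.4% in Nynrin-KO and 40.4% to 49.1% in WT.

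Ratios within a library do not depend on how the libraries are scaled to each other. Bax exceeded Bcl2l11 by 1.86 to 4.44 times in Nynrin-KO and by 11.9 to 21.997 times in WT. Bid over Bcl2l11 was 6.26 to 8.59 in Nynrin-KO and 16.9 to 40.9 in WT. Both separations follow from the calls, since Bax and Bid were lower and Bcl2l11 higher in every Nynrin-KO library than in any WT library, and they add no support. Bax over Pmaip1 was 0.0937 to 0.212 in Nynrin-KO and 0.287 to 0.565 in WT, whereas Bax over Bid overlapped, at 0.297 to 0.692 in Nynrin-KO and 0.459 to 0.901 in WT.

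**Figure D2:**
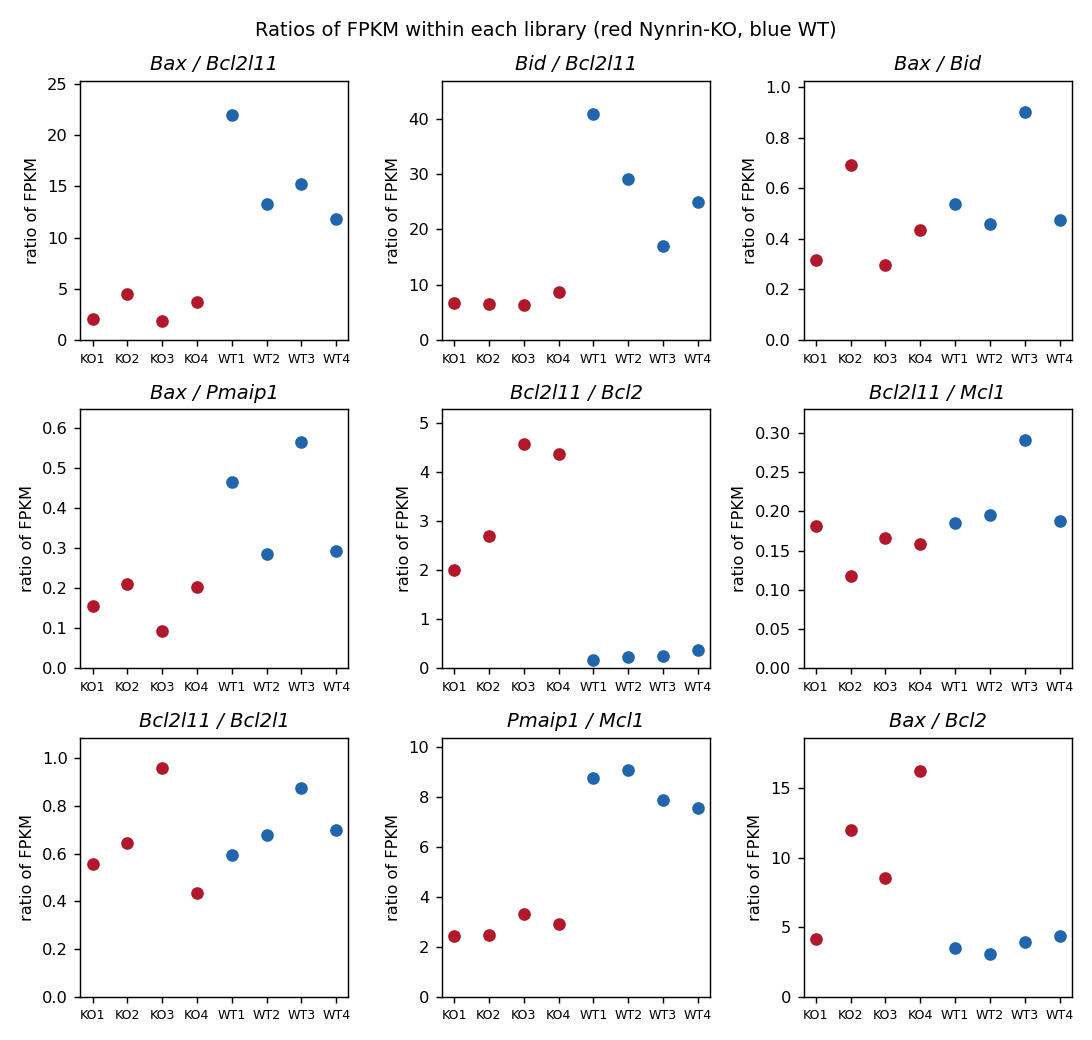
Ratios of FPKM (vertical axes, from 0) of all 9 gene pairs computed within each of the 4 Nynrin-KO libraries (red, left) and 4 WT libraries (blue, right). The groups overlap for Bax over Bid, Bcl2l11 over Bcl2l1 and Bax over Bcl2. They do not for the other 6 ratios, of which Bax and Bid over Bcl2l11 and Bcl2l11 over Bcl2 had to separate because their genes did so in opposite directions. The gap for Bcl2l11 over Mcl1, between KO1 (0.181) and WT1 (0.185), is within counting error.

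The anti-apoptotic genes that BH3-only proteins bind moved in both directions. Of 8 listed, 5 were tested, of which 3 rose and 1 fell, with a median log2 change of 1.11. Without KO1, KO2 or KO4 in turn, 1 of the 4 then tested rose and 1 fell. Of all genes tested 14.0% rose and 13.8% fell, and no pathway list was tested against these shares. Bcl2 fell to 1.43 ± 0.686 FPKM in Nynrin-KO, against 9.23 ± 2.45 FPKM in WT (SD, n = 4 each, log2 change -2.09, limma adjusted p = 0.00157). Mcl1, Bcl2l1, which encodes BCL-XL, and Bcl2a1d, which encodes an A1 protein, rose by 1.32, 0.93 and 2.40 on the log2 scale (limma adjusted p = 0.00493, 0.0246 and 0.00190). Reads of Bcl2a1d may be shared with its near-identical copies, so its single value is uncertain. It passed the filter through Nynrin-KO alone, so that only a rise could be called. Of those copies Bcl2a1a was tested and did not pass, at a log2 change of 1.11 (limma adjusted p = 0.200). That value is the median of the list, and Bcl2a1a was at 0 FPKM in KO3 and WT3. With Bcl2 lower and Bcl2l11 higher, the BIM gene stood at 2.01 to 4.57 times the level of Bcl2 in Nynrin-KO and at 0.160 to 0.369 times in WT, a separation that again follows from the calls. Bax over Bcl2 overlapped, at 4.18 to 16.2 in Nynrin-KO and 3.08 to 4.38 in WT. Against Mcl1 the ratio of Bcl2l11 ran the other way, at 0.117 to 0.181 in Nynrin-KO and 0.185 to 0.291 in WT. The nearest libraries were KO1 and WT1, where the counting intervals of Bcl2l11 were 3.84 to 5.06 FPKM and 1.79 to 2.23 FPKM. Counting error alone could close that gap. Against Bcl2l1 it overlapped, at 0.433 to 0.960 in Nynrin-KO and 0.596 to 0.874 in WT. Pmaip1 over Mcl1, the gene of its main partner, was 2.43 to 3.29 in Nynrin-KO and 7.57 to 9.08 in WT.

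**Figure D3:**
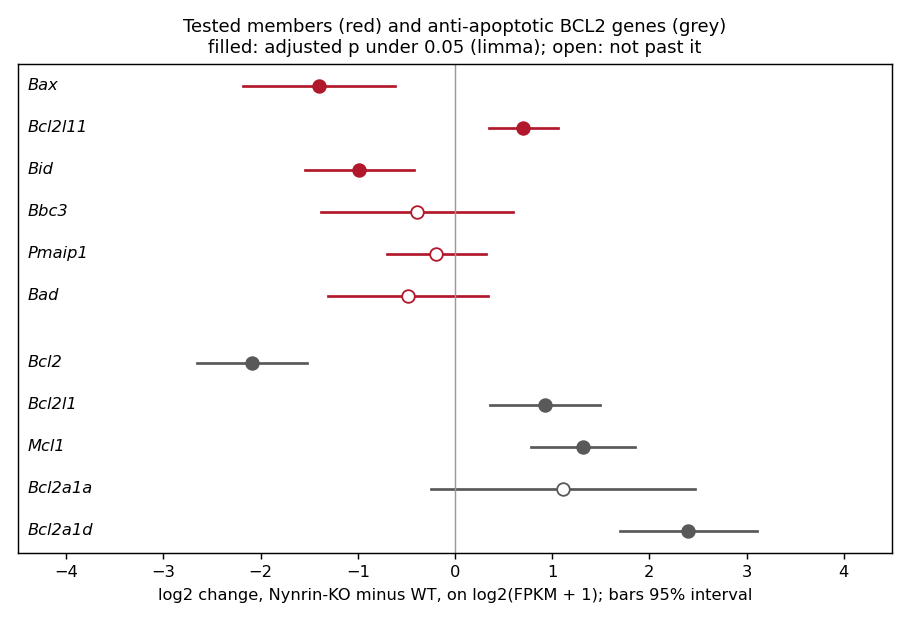
Log2 changes, Nynrin-KO minus WT, on the log2(FPKM + 1) scale with 95% intervals, for the 6 tested members (red) and the 5 tested anti-apoptotic genes (grey). Filled points passed an adjusted p of 0.05: Bax and Bid lie to the left of 0 with Bcl2, and Bcl2l11 lies to the right with Bcl2l1, Mcl1 and Bcl2a1d.

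Among 10 listed genes with BCL2 homology or a BH3-like stretch, 6 were tested and 1 rose. No other passed, and the median log2 change was -0.07, where 14.0% of all genes tested rose and 13.8% fell. The gene that rose was Bnip3l, which encodes the mitophagy receptor NIX, at 35.4 ± 4.83 FPKM in Nynrin-KO and 19.9 ± 2.27 FPKM in WT (SD, n = 4 each, log2 change 0.80, limma adjusted p = 0.00983). Huwe1, Becn1 and Bcl2l13 had log2 changes of -0.35, 0.37 and -0.21 and did not pass (limma adjusted p = 0.184, 0.238 and 0.325).

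Of 21 listed genes for direct partners of the members 18 were tested. Among these 6 fell and 1 rose, with a median log2 change of -0.31, where 13.8% of all genes tested fell and 14.0% rose. When KO1, KO2, KO3, WT1 or WT2 was left out, 4 partner genes fell. Vdac1, a channel of the outer membrane, and Mtch2, the mitochondrial receptor of BID, fell by 1.12 and 0.80 on the log2 scale (limma adjusted p = 0.00628 and 0.0140). Ywhae, which encodes an adaptor of the family that holds phosphorylated BAD, fell by 1.45 (limma adjusted p = 0.00625). The gene that rose was Pim1, a kinase that phosphorylates BAD, at 17.6 ± 3.47 FPKM in Nynrin-KO and 6.84 ± 1.06 FPKM in WT (SD, n = 4 each, log2 change 1.23, limma adjusted p = 0.00305).

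Downstream of the pore, 4 of 12 tested genes rose and 2 fell, of 13 listed, with a median log2 change of 0.37. The number that fell was 1 when KO1, KO2, KO3, WT1, WT2 or WT3 was left out. Over all genes tested 14.0% rose and 13.8% fell. Cycs, the cytochrome c gene, fell to 52.0 ± 13.02 FPKM in Nynrin-KO, against 174 ± 38.8 FPKM in WT (SD, n = 4 each, log2 change -1.72, limma adjusted p = 0.00224). Among the genes that rose were the inhibitors of apoptosis Birc3, Birc2 and Xiap, by 1.61, 0.86 and 0.75 on the log2 scale (limma adjusted p = 0.00631, 0.00705 and 0.0158).

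Of 21 listed transcription factors and their regulators that act on BH3-only genes, 16 were tested, 1 rose and 2 fell, with a median log2 change of 0.16. Without KO3, 3 rose. For comparison, 14.0% of all genes tested rose and 13.8% fell with all 8 libraries. Trp53, which encodes p53, fell to 16.2 ± 4.86 FPKM in Nynrin-KO, against 42.3 ± 15.6 FPKM in WT (SD, n = 4 each, log2 change -1.33, limma adjusted p = 0.0130). Myc fell by 1.69 and Irf1 rose by 1.32 on the log2 scale (limma adjusted p = 0.00372 and 0.00973). Ddit3, which encodes the stress factor CHOP, had a log2 change of 0.69 and did not pass (limma adjusted p = 0.0584).

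The genes most like each called member over the 8 libraries were found by the root mean square difference between centred log2(FPKM + 1) values, among named protein-coding genes with a mean of at least 5 FPKM. For Bax, of 4968 genes compared, these were Ninj1, Parp1 and Pfkl, with differences of 0.18, 0.18 and 0.20, beside a spread of 0.85 for Bax itself. For Bid they were Abcf2, Pimreg and Prmt3, at 0.08, 0.09 and 0.09, beside 0.58 for Bid. For Bcl2l11, compared with 4969 genes, they were Ankrd11, Arid4b and Slc35b3, at 0.08, 0.09 and 0.10, beside 0.37. The likeness is a description, since the 2 genotypes alone give many genes the same outline.

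The share of reads of neutrophil markers separated the genotypes, as the called members did. It was 19.97%, 8.67%, 14.6% and 14.3% in KO1 to KO4, against 0.237%, 5.66%, 3.97% and 7.64% in WT1 to WT4, so every Nynrin-KO library was above every WT library. Within a genotype Bax was highest in KO2 (21.6 FPKM) and WT1 (44.0 FPKM), the libraries with the lowest share in each genotype. It was lowest in KO3 (6.47 FPKM, from 13 reads) and WT2 (25.4 FPKM), while KO1 and WT4 had the highest share. Bcl2l11 was highest in KO2, with the lowest share of the Nynrin-KO libraries, and in WT4, with the highest of the WT libraries. Its counting intervals in KO2, 4.46 to 5.27 FPKM, and KO1, 3.84 to 5.06 FPKM, overlap, as do those of WT4 and WT3. Bid was highest in WT1, with the lowest share of the WT libraries, and lowest in WT3, with the next lowest. Of the 13 markers 8 rose and no marker fell. S100a8, the most abundant, did not pass (limma adjusted p = 0.0975) and was at 58606 to 128921 FPKM in Nynrin-KO and 1288 to 45965 FPKM in WT. With the mean log2 level of the markers as a covariate, the log2 changes were -0.95 for Bax, -0.65 for Bid and 0.61 for Bcl2l11, and none passed (limma adjusted p = 0.337, 0.349 and 0.239), where 0.0639% of all genes tested were called. No gene of the 5 pathway lists was called in that fit. The SE of the Bax change was 0.50 with the covariate and 0.35 without it. Because the marker share separates the genotypes, that fit cannot tell neutrophil content and genotype apart. Beyond it the part of neutrophils in the results was not tested. Of 11 listed markers of monocytes and macrophages 5 rose: C1qa, C1qb, C1qc, Apoe and Vcam1. Csf1r, Ccr2, Ly6c2, Cd68, Adgre1 and Cx3cr1 did not pass (limma adjusted p = 0.0531 to 0.968). The summed level overlapped between groups, at 1885 to 4248 FPKM in Nynrin-KO and 1327 to 2549 FPKM in WT. Ly6c2 alone averaged 2025 FPKM in Nynrin-KO and 1484 FPKM in WT. Listed B cell genes summed to 5.29 to 16.2 FPKM in Nynrin-KO and 0.199 to 2.89 FPKM in WT, and of 5 genes Cd79a rose. Mast cell and basophil genes summed to 47.2 to 112 FPKM in Nynrin-KO and 6.20 to 11.4 FPKM in WT, and of 5 genes Hdc, Cpa3 and Ms4a2 rose. Erythroid genes summed to 5.69 to 45.7 FPKM in Nynrin-KO and 0.260 to 2.24 FPKM in WT, and of 7 genes Hbb-bs and Hba-a1 rose. Cd79a, Ms4a2, Hbb-bs, Hba-a1 and, among the genes of the sorted cells, Meis1 passed the filter through Nynrin-KO alone, so only a rise could be called for them. T and NK cell genes summed to 98.4 to 225 FPKM in Nynrin-KO and 0.830 to 10.6 FPKM in WT. Of these 6 genes only Nkg7 reached 1 FPKM in 4 or more libraries, and it rose. The sums therefore do not show whether T or NK cells were present. The part of any of these listed cell types in the results was not tested.

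**Figure D4:**
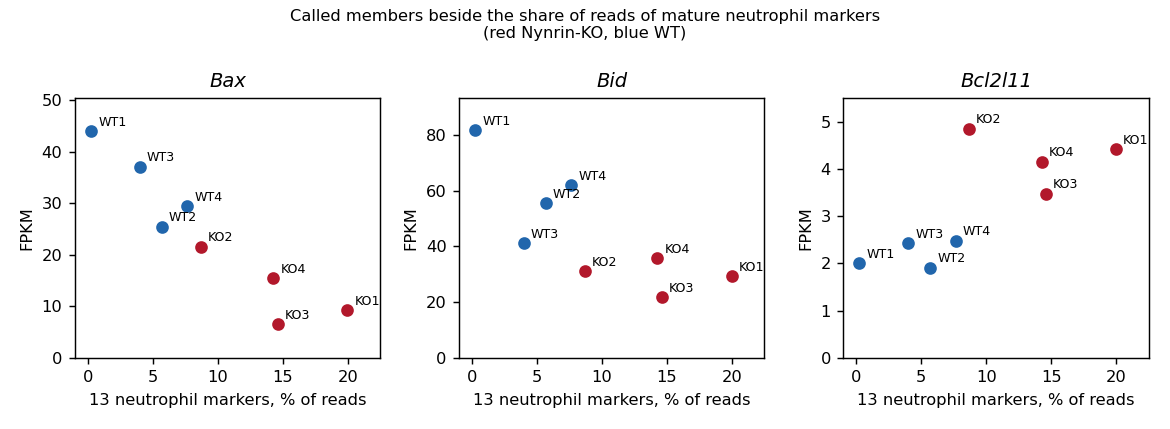
FPKM of Bax, Bid and Bcl2l11 (vertical axes, from 0) against the percentage of reads taken by 13 mature neutrophil markers (horizontal axis) in Nynrin-KO (red) and WT (blue) libraries. The Nynrin-KO libraries lie at 8.67% to 19.97% and the WT libraries at 0.237% to 7.64%, so share and genotype separate together.

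The calls of Bax, Bid and Bcl2l11 kept their direction in all 23 alternative analyses, but lost the threshold in some. Each remained past it when any single library was left out. Without both WT1, the library lowest in neutrophil markers, and KO1, the library with both Xist and Ddx3y, 0 members were called and 13.9% of genes were. There the log2 changes were -1.15, -0.83 and 0.65 for Bax, Bid and Bcl2l11 (limma adjusted p = 0.104, 0.0872 and 0.0872). With no filter on low values, 0 of 9 members and 3.5% of 48500 genes were called, with limma adjusted p = 0.0527, 0.0681 and 0.0859 for the same 3 genes.

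Libraries also differ in the gene model Gm10800, which was at 3349 to 126894 FPKM in Nynrin-KO and 6076 to 142258 FPKM in WT. Within the 5 libraries with at least 10000 FPKM of it (KO1, KO3, WT2, WT3 and WT4), Bax fell by 1.84 on the log2 scale (limma adjusted p = 0.0190) while 8.31% of genes were called. Bid and Bcl2l11 had log2 changes of -1.02 and 0.60 there and did not pass (limma adjusted p = 0.0690 and 0.206). The other 3 libraries hold a single WT library, so they allow no test: Bax was at 21.6 and 15.4 FPKM in KO2 and KO4, against 44.0 FPKM in WT1. With the log2 level of Gm10800 as a covariate 4 members were called, where 36.5% of genes were, and the fourth was Bad, at a log2 change of -0.81 (limma adjusted p = 0.0231).

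**Figure D5:**
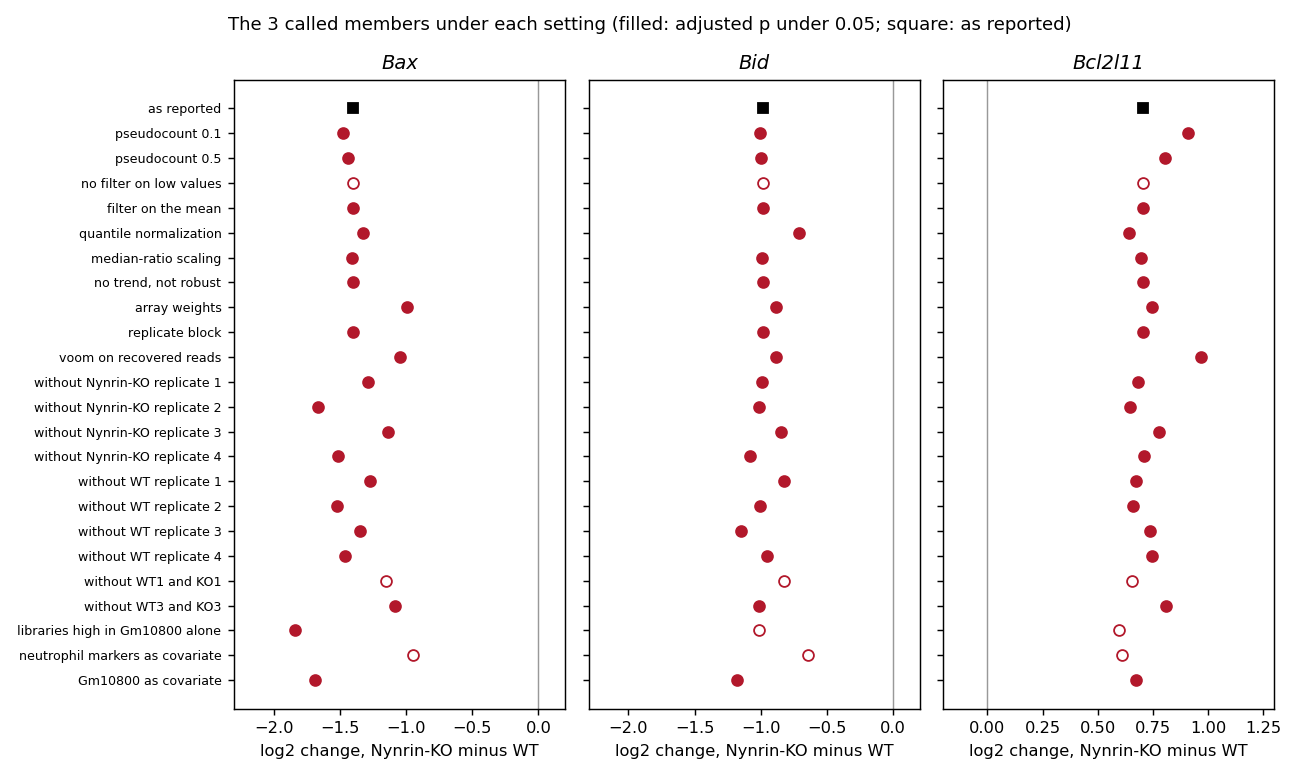
Log2 changes of Bax, Bid and Bcl2l11, Nynrin-KO minus WT (horizontal axes), as reported (square) and under 23 alternatives (circles), filled where the adjusted p is under 0.05. No point crosses 0, and the open circles are 3 for Bax, 4 for Bid and 4 for Bcl2l11.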

How the data were processed

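The authors deposited a single table of 48500 genes by 8 libraries. The values were read as FPKM, which the file header does not name, because in the deposited table each value multiplied by the longest GENCODE M21 transcript of its gene gave sums that were close to equal across libraries. Dividing by 1 step a library gave whole reads, within 0.1 read, for 99.4% to 99.5% of the low values checked, and so the depth and the reads behind each value. Libraries were made with the Smart-Seq V4 kit, per the labels' protocols. Per the submitters' processing notes the build was mm10 and the tools were Bowtie 0.12.9, Cufflinks 2.1.1 and HTSeq. The sources used here do not give the rules for strand or for reads that match several genes. PCR copies are not independent molecules, so counting intervals and the level of 3 reads cover counting error only.

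The test, on genes that reached 1 FPKM in 4 or more libraries, was that of limma 3.58.1 under R 4.3.3. It used log2(FPKM + 1), which understates changes of low genes, with genotype as the only term, trend and robust moderation, and Benjamini-Hochberg adjustment over all genes. Members under the filter were compared with exact two-sided permutation tests. The fit was also run on simulated data, which held no differences in sex, neutrophil content or Gm10800. That run checks the fit itself and not the calls in these data. Members, lists and alternatives were chosen with earlier results of these data known. All 9 members are named, with the 4 genes of smallest p in each of 5 pathway lists and the 3 genes most like each called member. Other genes were named as marker or library checks, as overlapping gene models or, for Bcl2a1a, as a copy of a named gene. Python 3.11.15, numpy 2.4.6, pandas 2.3.3 and matplotlib 3.10.9 were used. The alternatives changed the pseudocount, filter, scaling, weights, moderation, covariates, replicate block and libraries, and voom was run on the recovered reads. Leaving out WT3 and KO3, the shallowest libraries, was chosen after seeing the data.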

Additional observations from a re-analysis of the deposited data

Results flagged for a closer look

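Several values stood apart from the other 3 libraries of their group by more than Dixon's 95% critical value for 4 samples of 0.829, which chance passes in about 1 of 20 groups, and 5 of the 58 groups examined did so. Bak1 in KO1 was 0.574 FPKM, against 0.917 to 0.963 FPKM in KO2 to KO4. The 13 reads of Bak1 in KO1 allow 0.306 to 0.982 FPKM (exact Poisson 95% interval), which includes those levels, and KO3 had 4 reads. Huwe1 in KO3 was 1.95 FPKM, against 2.31 to 2.39 FPKM in the other Nynrin-KO libraries. Irf1 in KO2 was 108 FPKM, against 52.0 to 58.4 FPKM. Myc in WT1 was 102 FPKM, against 49.1 to 54.5 FPKM in the other WT libraries. Ddit3 in WT4 was 10.4 FPKM, against 8.75 to 8.94 FPKM.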

How the results depend on the processing

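The 3 called members kept their direction in all 23 alternatives, with log2 changes of -1.84 to -0.95 for Bax, -1.18 to -0.65 for Bid and 0.60 to 0.97 for Bcl2l11. Adjusted p ranged from 0.00124 to 0.337 for Bax, 0.00114 to 0.349 for Bid and 0.00225 to 0.239 for Bcl2l11. The number of members called was 3 with each library left out, 0 with no filter, without WT1 and KO1 or with the neutrophil covariate, and 1 in the libraries high in Gm10800. The number of genes called was 2358 to 3606 with each library left out, 1698 with no filter, 1579 without WT1 and KO1, 925 in the libraries high in Gm10800 and 8 with the neutrophil covariate. Fewer libraries enter some of these fits, and more genes enter the one with no filter. The neutrophil marker share separates the genotypes, and with that covariate the SE of the Bid change was 0.35, against 0.25 as reported. Otherwise the cause was not tested. Members that were not called changed sign in 4 cases: Bak1 was -0.081 without WT3 and -0.10 without WT3 and KO3, Bbc3 was 0.00060 without WT3 and KO3, and Pmaip1 was 0.21 under quantile normalization. With each library left out, Bak1 ranged from -0.081 to 0.27, Bad from -0.71 to -0.12, Bbc3 from -0.82 to -0.027 and Pmaip1 from -0.34 to -0.083. Under voom on the recovered reads Bad was -0.0092. Bmf reached an exact permutation p of 0.0286 without KO1, and Bik without WT3. With the replicate number as a block, Bax, Bid and Bcl2l11 kept log2 changes of -1.40, -0.98 and 0.70 (limma adjusted p = 0.0492, 0.0235 and 0.0465), and 2838 genes were called. Deviations of same-numbered libraries correlated at -0.21, -0.39, 0.33 and 0.01 for numbers 1 to 4. Only KO3 and WT3, the shallowest libraries, were each other's best match, so pairing by number was not general. Why these libraries deviated together was not tested. Depth limits the low members in the shallow libraries: in KO3, 3 reads are 1.23 FPKM for Bik, 1.07 for Bad, 0.905 for Bbc3, 0.688 for Bak1 and 0.354 for Bmf.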
